A study of Mus musculus with 19 samples.

Results

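Fatty acid oxidation turns fatty acids into acetyl-CoA inside mitochondria, and astrocytes are the main brain cells known to run this pathway and to release ketone bodies. Carnitine palmitoyltransferases carry long-chain fatty acids into the mitochondrion, acyl-CoA dehydrogenases start each round of shortening, and the trifunctional protein and thiolases finish it. Bdh1 interconverts the ketone bodies acetoacetate and beta-hydroxybutyrate, and the nuclear receptor Ppara senses fatty acids and activates genes of the pathway.

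The 10 genes described here were taken by symbol from a fixed list, namely Cpt1a, Cpt2, Acadl, Acadm, Acadvl, Hadha, Hadhb, Acaa2, Bdh1 and Ppara. Each matched 1 row of the 21749 genes in the deposited table, and all 10 were among the 20644 genes tested. The libraries hold ribosome-bound polyadenylated RNA from cortical astrocytes of mice labelled Ald1l1-L10a-eGFP. These carry the transgene Aldh1l1-EGFP/Rpl10a (line JD130Htz/J) on a B6;FVB background, in which regulatory sequence of the astrocyte gene Aldh1l1 drives an EGFP-tagged ribosomal protein L10a. Beads that bind the tag pull down ribosomes with the RNA on them, so the values reflect RNA on ribosomes. All groups carry this transgene, no drug is named in the labels, and the groups comprise 8 metestrus, 3 proestrus and 4 estrus libraries from females collected at the same morning hour, and 4 libraries from males. The labels name batches 2, 3 and 4 without saying what they separate. Batch 2 holds 2 metestrus, 2 proestrus and 3 estrus libraries, batch 3 holds 1 of each stage, and batch 4 holds 5 metestrus and 4 male libraries. The sources used here give no age, and do not say whether a library is 1 animal or a pool, so the tests measure the spread between libraries.

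Astrocyte transcripts were present in every library together with those of other cells. The mean of 16 astrocyte markers lay between 13.33 and 14.21 on the log2 scale over all groups, and the mean of 12 neuron markers between 12.27 and 12.77. The mean of 10 microglia markers lay between 7.56 and 8.40. The mean of 11 endothelial and mural markers was 6.15 ± 0.58 in the estrus libraries (SD, n = 4) and 7.21 ± 0.60 in the male ones (SD, n = 4), with overlapping ranges. No library of unpurified tissue was analysed here, so the values below are not assigned to astrocytes alone. In such pooled RNA, fewer cells of a type and less RNA per cell cannot be told apart.

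Hadha and Hadhb, which encode the alpha and beta subunits of the mitochondrial trifunctional protein, lie head to head, and their RefSeq starts are 273 bases apart. The stretch between the GENCODE starts of the pair, at chr5:30155163-30155247 of GRCm38.p6 on the plus strand, is 85 bases long and 69.4% G or C. It is shown because both genes are read outward from it, Hadha to the left and Hadhb to the right.
Hadha-Hadhb: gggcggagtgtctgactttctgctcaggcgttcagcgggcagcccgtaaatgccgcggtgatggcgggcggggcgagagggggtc

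PPARs bind, with their partner RXR, to direct repeats of the hexamer AGGTCA, a core also read by several other nuclear receptors. RefSeq promoter windows of GRCm38.p6, from 250 bases before to 50 after a gene start, were matched by symbol for 9 of the 10 genes (10 windows). AGGTCA or its reverse complement TGACCT occurred in the windows of 3 genes, Acadm, Acadvl and Cpt1a, and in 16.3% of all 32851 windows. The direct repeat DR1, which is AGGTCA followed after 1 base by AGGTCA, was searched on both strands and was in the window of 0 members and in 0.0396% of all windows. The core of an estrogen response element, GGTCA followed after 3 bases by TGACC, reads the same on both strands and was in 0 members and in 0.0700% of all windows. The stretches with the hexamer are shown because they are the only matches among the members, with the hexamer in capitals as it reads on the gene's own strand. The first is at chr3:153944873-153944893 (minus strand), the second at chr11:70015496-70015529 (minus strand) and the third at chr19:3323193-3323226 (plus strand), and a match of letters is not a measured binding site.
Acadm: gTGACCTtcgggctccggtga
Acadvl: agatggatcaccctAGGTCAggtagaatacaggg
Cpt1a: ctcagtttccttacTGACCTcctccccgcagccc

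Across the 4 groups the means of the 9 enzyme genes lay closer together than those of Ppara. The distance between the highest and the lowest group mean ran from 0.21 (Acadm) to 0.54 (Cpt1a) for the enzymes and was 1.47 for Ppara, all on the log2 scale. Ppara also had the lowest level of the 10 genes, with a mean of 7.72 over all libraries. Its SD over the 19 libraries was above that of 81.9% of the 1000 tested genes nearest in level. By this measure Acadvl stood higher, at 85.8%, and the other enzymes lower, so Ppara was not the most variable member for its level. Estrus had the highest mean for 6 of the 10 genes, males for 3 and proestrus for 1. Proestrus had the lowest mean for 6, and metestrus and males for 2 each. Among neighbours in the order of group means, the gap exceeded the larger of both SDs in 3 of 30 cases, Hadha in estrus over proestrus, Ppara in males over metestrus and Ppara in estrus over proestrus. In all 30 cases the ranges of neighbouring groups overlapped. Between groups farther apart in the order, males and proestrus did not overlap for 3 of the 10 genes, with Acadl and Ppara higher and Cpt1a lower in males, beside 21.1% of all tested genes. Males and estrus did not overlap for 1 (Ppara, higher in males), beside 11.9%. These pairs of groups share no batch, so batch and group cannot be told apart there.

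**Figure D1:**
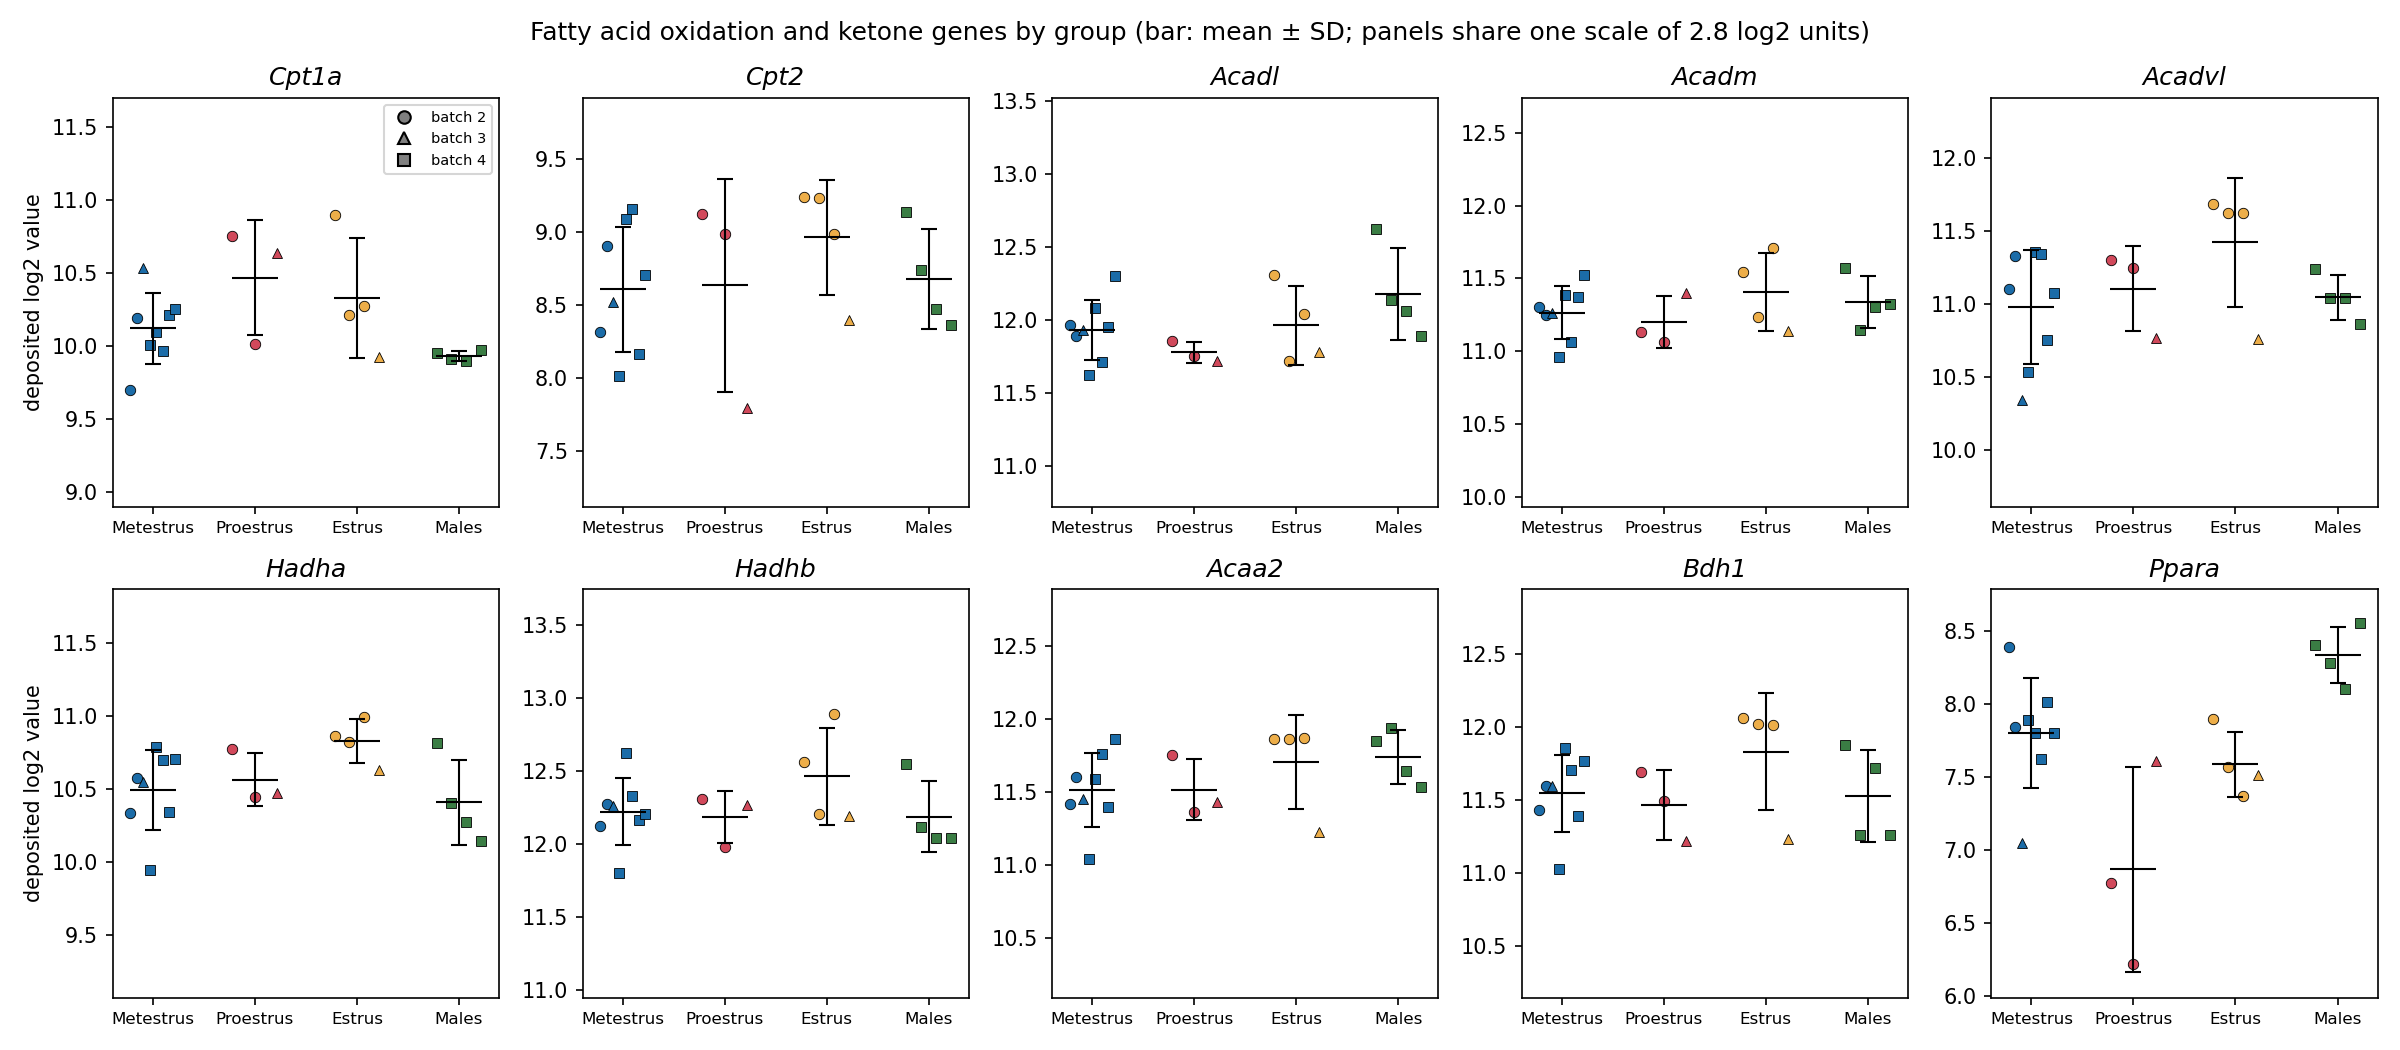
Deposited log2 value (vertical axes, panels of equal span) of the 10 genes in each library, by group, with mean ± SD as bars and batches as marker shapes. The enzymes overlap between most groups, except males and proestrus for Cpt1a and Acadl, and Ppara is lowest in the 2 proestrus libraries of batch 2 and highest in males.

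Each of the 4 comparisons was tested in limma with group and batch in the model, using Benjamini-Hochberg adjustment across the 20644 genes and a limit of 0.05 on the adjusted p. No batch holds males together with proestrus or estrus libraries, so those pairs were not tested. Of the 10 genes, 0 passed in proestrus against metestrus (0.988% of all tested genes did), 0 in estrus against metestrus (0.0872%) and 0 in estrus against proestrus (0.940%). In males against metestrus 0 passed as well (0.0242%). An unadjusted p under 0.05 was found for 1 of the 10 in proestrus against metestrus, where 13.1% of all genes had one, for 1 in estrus against metestrus (11.3%) and for 1 in estrus against proestrus (14.5%). It was found for 0 in males against metestrus (5.33%). The ranges of both groups overlapped for all 10 genes in each of these 3 stage comparisons, whereas 8.73%, 3.33% and 9.06% of all genes had no overlap, in the order given. Without limma's trend and robust prior the counts of members past the threshold were again 0 in all 4 comparisons. The 3 stage comparisons share libraries, so their values are not independent of each other.

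The 95% intervals of the fitted fold changes give the range of differences these libraries leave possible. Over the 9 enzymes they ran from -0.59 to 0.82 in proestrus against metestrus and from -0.37 to 0.93 in estrus against metestrus. They ran from -0.60 to 0.87 in estrus against proestrus and from -0.58 to 0.58 in males against metestrus. The widest of these bounds corresponds to a ratio of 1.91 (Cpt2, estrus over metestrus).

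**Figure D2:**
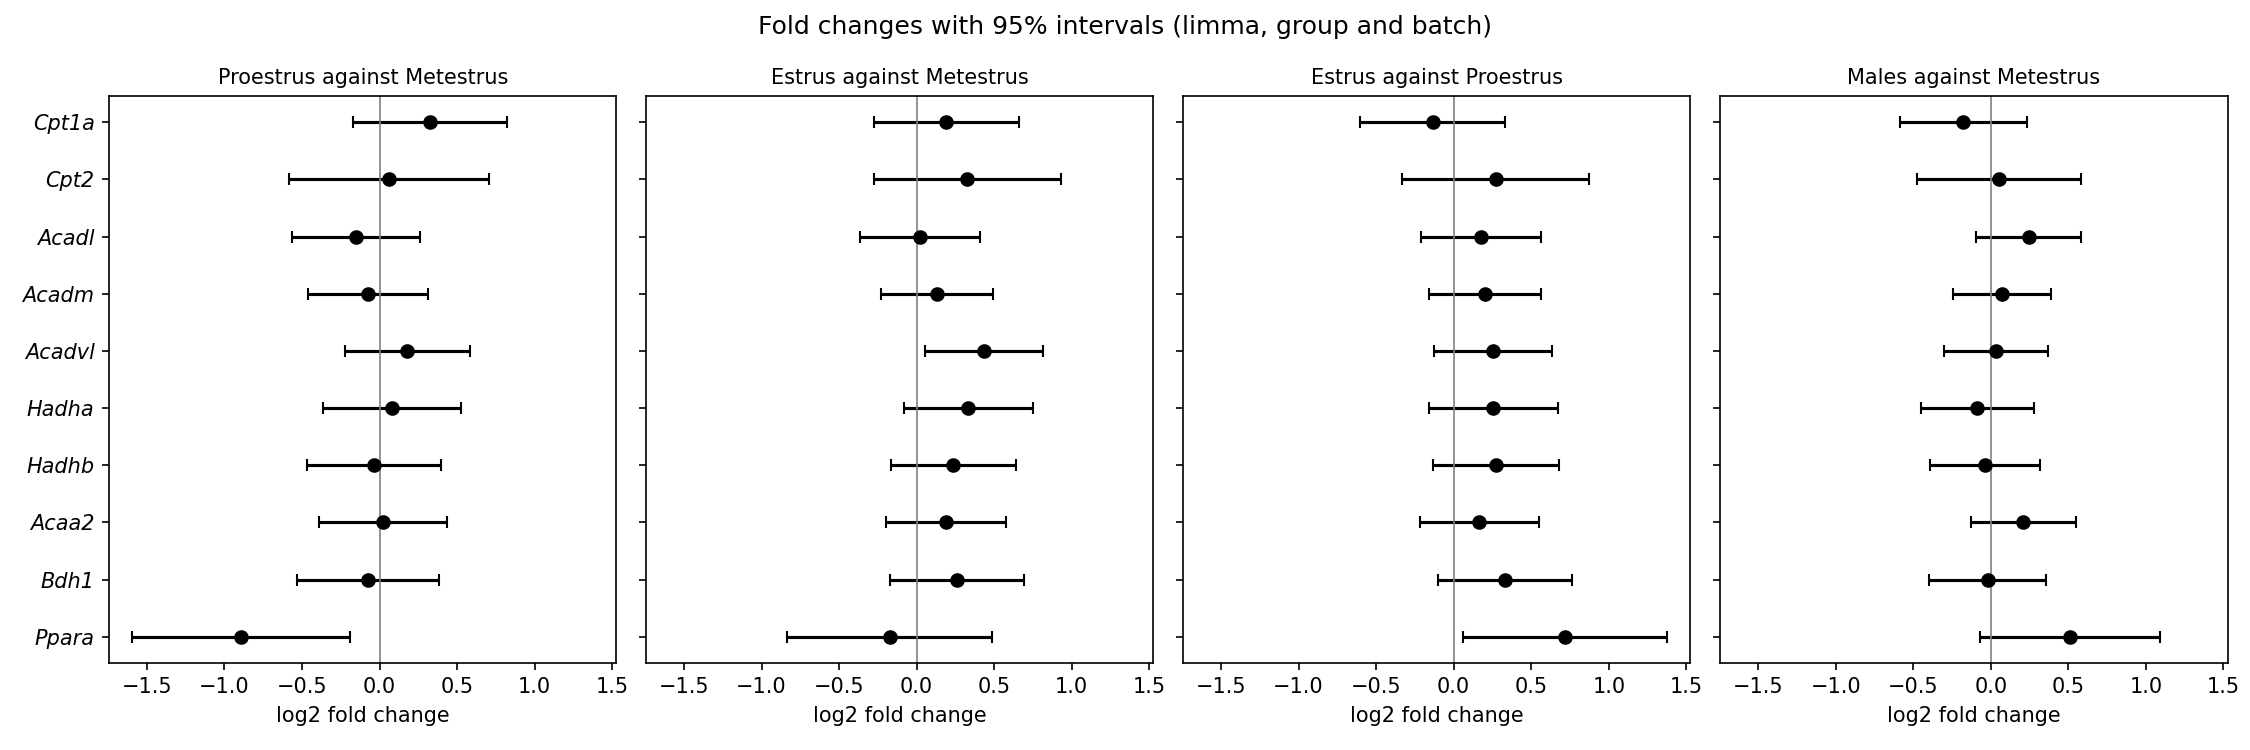
Log2 fold change (horizontal axis) of each gene in the 4 comparisons, as the limma estimate with its 95% interval. Intervals that leave out 0 are those of Ppara in both comparisons with proestrus and of Acadvl in estrus against metestrus, each before adjustment over all genes.

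Ppara (ENSMUSG00000022383.14), the receptor, showed the widest differences. Its log2 values in proestrus were 6.77, 6.22 and 7.61, while those in estrus were 7.89, 7.57, 7.37 and 7.51. In metestrus they ran from 7.05 over a median of 7.82 to 8.39, and in males they were 8.40, 8.28, 8.10 and 8.55. The 2 proestrus libraries of batch 2 lay below every library of the other groups, the proestrus library of batch 3 lay within the metestrus range, and the highest metestrus library lay within the male range.

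The group means of Ppara were 6.87 ± 0.70 for proestrus (SD, n = 3), 7.59 ± 0.22 for estrus (SD, n = 4), 7.80 ± 0.38 for metestrus (SD, n = 8) and 8.33 ± 0.19 for males (SD, n = 4). In proestrus against metestrus the log2 fold change was -0.89 ± 0.34 (SE), with a limma adjusted p of 0.244 and a 95% interval of -1.60 to -0.19. In estrus against proestrus it was 0.72 ± 0.32 (SE, limma adjusted p = 0.292), and in estrus against metestrus -0.17 ± 0.32 (SE, limma adjusted p = 0.875). None of these passed the threshold.

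The call on Ppara depended on which libraries were used. Without Proestrus replicate 3, the library of batch 3, the fold change in proestrus against metestrus was -1.45 with a limma adjusted p of 0.0388, and in estrus against proestrus it was 1.23 with 0.0466. Without Metestrus replicate 3, also of batch 3, the fold change against metestrus was -1.41 with an adjusted p of 0.0509 in limma. Without a batch term it was -0.93 in proestrus against metestrus, with a limma adjusted p of 0.0397. The fold change in estrus against metestrus was -0.65 without Metestrus replicate 3 and 0.18 without Metestrus replicate 1, and in estrus against proestrus it was 0.35 without Proestrus replicate 2. Over all 18 alternatives in proestrus against metestrus, the fold change ran from -1.45 to -0.54 and the adjusted p from 0.0388 to 0.627.

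Within batches the stage difference of Ppara had opposite signs. In batch 2 the proestrus mean was 6.49 (2 libraries) and the metestrus mean 8.11 (2 libraries), a difference of -1.62. In batch 3 the single proestrus library stood at 7.61 and the single metestrus library at 7.05, a difference of 0.56. The lower Ppara in proestrus was therefore seen in batch 2 and not in the 1 pair of batch 3. Within batch 2, proestrus was below metestrus without overlap for 3 of the 10 genes (Acadl, Acadm and Ppara), beside 25.1% of all tested genes, and above it for 1 (Cpt2), beside 19.4%.

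**Figure D3:**
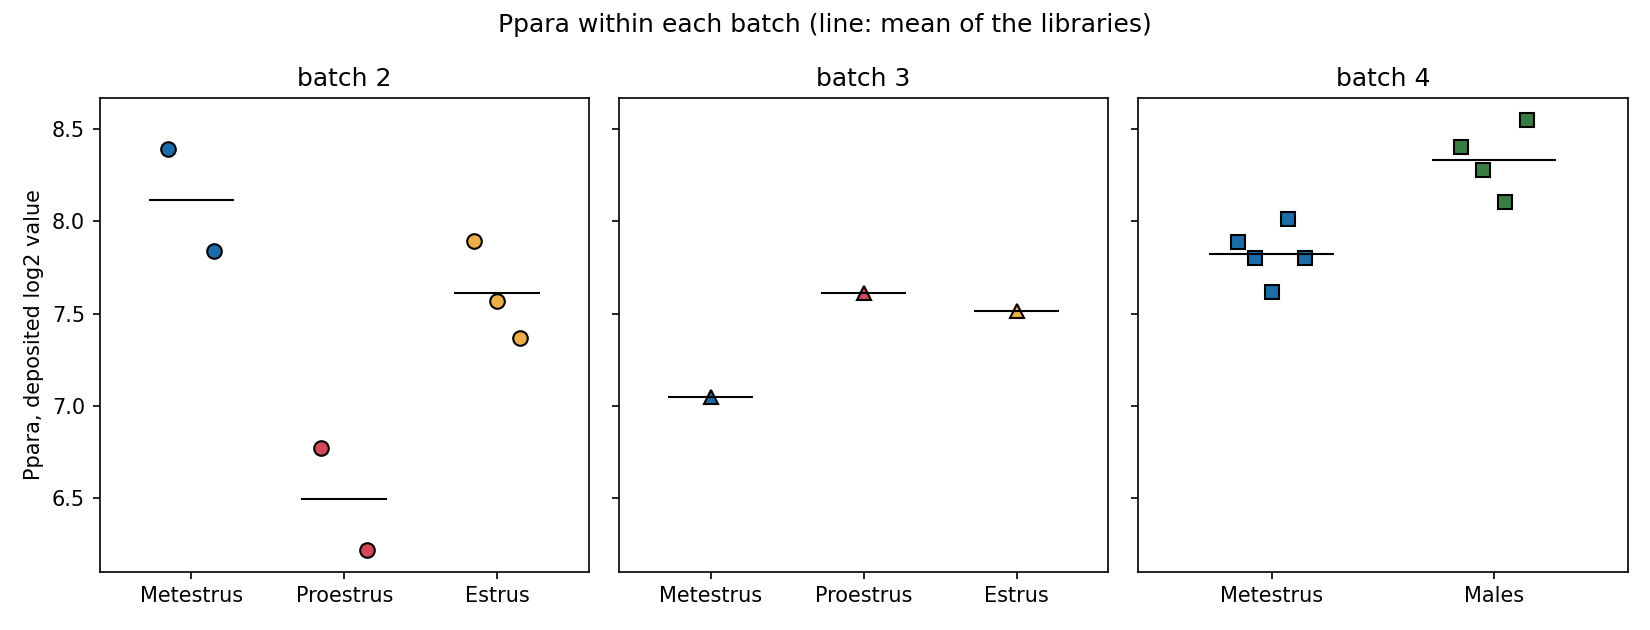
Deposited log2 value of Ppara (vertical axis) in each library by group within batches 2, 3 and 4, with lines at the means. Proestrus lies below metestrus in batch 2 (6.49 against 8.11) and above it in batch 3 (7.61 against 7.05), and the 4 male libraries lie above the 5 metestrus libraries of batch 4.

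Males and metestrus females can be compared directly in batch 4. There the 5 metestrus libraries had Ppara values of 7.89, 7.80, 7.62, 8.01 and 7.80, and all 4 male libraries lay above them. Ppara was the only one of the 10 genes higher in males without overlap within that batch, against 1.53% of all tested genes, and 0 of the 10 were lower without overlap (1.12%). The fitted fold change was 0.51 ± 0.28 (SE, limma adjusted p = 0.973, 95% interval -0.07 to 1.09), and it ran from 0.44 to 0.59 over 20 alternatives. With all metestrus libraries, 0 of the 10 genes were without overlap (1.44% of all genes were). The mean of the 16 astrocyte markers in males was 14.06 ± 0.09 (SD, n = 4) against 13.86 ± 0.20 in the metestrus libraries of all batches (SD, n = 8). That of the endothelial and mural markers was 7.21 ± 0.60 against 6.84 ± 0.36 in the same libraries. The median fitted fold change was 0.17 for astrocyte markers and 0.47 for endothelial and mural ones. It was 0.02 for neuron, 0.05 for oligodendrocyte and -0.04 for microglia markers, beside 0.04 over all tested genes. The part of marker levels in the Ppara difference was not tested.

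Transport into the mitochondrion is represented by Cpt1a and Cpt2. Cpt1a (ENSMUSG00000024900.6), the outer membrane enzyme that malonyl-CoA inhibits and that limits the entry of fatty acids, had values of 10.75, 10.02 and 10.64 in proestrus and of 10.90, 10.21, 10.27 and 9.92 in estrus. In males it was 9.95, 9.91, 9.90 and 9.97, and in metestrus it ran from 9.70 over a median of 10.14 to 10.53. The males formed the tightest group (SD 0.03, n = 4) at the lower end of the female range. Their mean of 9.93 compared with 10.12 ± 0.24 in metestrus (SD, n = 8), a fitted log2 fold change of -0.18 ± 0.20 (SE, limma adjusted p = 0.992).

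In proestrus against metestrus Cpt1a had the highest fold change of the enzymes, 0.33 ± 0.24 (SE, limma adjusted p = 0.601, 95% interval -0.17 to 0.82). It was 0.10 without Metestrus replicate 1 and 0.58 without Metestrus replicate 3. Cpt2 (ENSMUSG00000028607.17), the inner membrane enzyme that returns the fatty acid to CoA, varied most between libraries among the enzymes, with an SD of 0.44 over all 19. Its proestrus values of 9.12, 8.99 and 7.80 ran from below every other library up to near the highest, and its fold change there was 0.06 ± 0.31 (SE, limma adjusted p = 0.958). In estrus it had values of 9.24, 9.23, 8.98 and 8.40, and in estrus against metestrus a fold change of 0.33 ± 0.29 (SE, limma adjusted p = 0.706). That value was 0.05 without Metestrus replicate 1 and 0.60 without Metestrus replicate 3.

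The acyl-CoA dehydrogenases carry out the first step of each round, for very long (Acadvl), long (Acadl) and medium chains (Acadm). Acadvl (ENSMUSG00000018574.15) had estrus values of 11.68, 11.63, 11.62 and 10.76, proestrus values of 11.30, 11.24 and 10.77, and male values of 11.24, 11.04, 11.04 and 10.86. In metestrus it ran from 10.34 over a median of 11.09 to 11.36. The 3 estrus libraries of batch 2 lay above all libraries of the other groups, and the estrus library of batch 3 lay among them.

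In estrus against metestrus Acadvl had a log2 fold change of 0.43 ± 0.18 (SE, 95% interval 0.05 to 0.81). It was the member with an unadjusted p under 0.05 in that comparison (0.0272 in limma), and its adjusted p was 0.385. The difference was 0.43 within batch 2 and 0.42 within batch 3, which holds 1 library per stage. There the metestrus library, at 10.34, was the lowest of all 19 libraries, and the estrus library was at 10.76. Over 19 alternatives the fold change ran from 0.38 to 0.52, with limma adjusted p-values from 0.189 to 0.652.

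Acadm (ENSMUSG00000062908.13) was the steadiest member, with an SD of 0.20 over the 19 libraries. Among the 1000 tested genes nearest in level, most had a larger SD, whereas Acadvl was above 85.8% of its own 1000 neighbours. Its mean was 11.27 over the metestrus libraries, 11.20 over proestrus, 11.41 over estrus and 11.34 over males, and its fold changes lay between -0.07 and 0.20. Acadl (ENSMUSG00000026003.6) had means of 11.93, 11.77, 11.96 and 12.17 in the same order. Its 3 proestrus values of 11.85, 11.75 and 11.72 lay close together, and its largest fold change was 0.24 ± 0.16 in males against metestrus (SE, limma adjusted p = 0.980).

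The later steps are carried out by the trifunctional protein and by the thiolase Acaa2, which splits off acetyl-CoA. Hadha (ENSMUSG00000025745.13) had values of 10.86, 10.82, 10.99 and 10.63 in estrus, of 10.77, 10.44 and 10.47 in proestrus, and of 10.82, 10.40, 10.27 and 10.14 in males. In metestrus it ran from 9.94 over a median of 10.56 to 10.78. The estrus mean of 10.83 was the highest, with a fold change over metestrus of 0.33 ± 0.20 (SE, limma adjusted p = 0.544). That fold change ran from 0.23 to 0.43 over left-out libraries.

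Hadhb (ENSMUSG00000059447.14), read from the same stretch in the other direction, had an estrus mean of 12.47 ± 0.33 (SD, n = 4) and 12.22 ± 0.23 in metestrus (SD, n = 8). Its fold change was 0.24 ± 0.20 (SE, limma adjusted p = 0.678). Over the 19 libraries Hadha and Hadhb had the highest correlation of the 36 pairs of enzymes, with a Pearson r of 0.85, and of 0.83 with group and batch means taken out, where Hadha with Bdh1 (0.85) and Hadha with Acaa2 (0.83) came out slightly higher. Acaa2 (ENSMUSG00000036880.11) had estrus values of 11.86, 11.86, 11.87 and 11.23, so that 3 libraries were nearly equal and that of batch 3 lay lower. Its fold change over metestrus was 0.19 ± 0.19 (SE, limma adjusted p = 0.741), and in males over metestrus 0.21 ± 0.16 (SE, limma adjusted p = 0.983).

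Bdh1 (ENSMUSG00000046598.16), the ketone body dehydrogenase, had values of 12.06, 12.02, 12.01 and 11.23 in estrus and of 11.69, 11.49 and 11.21 in proestrus. In males it was 11.87, 11.26, 11.71 and 11.26, and in metestrus it ran from 11.02 over a median of 11.60 to 11.86. The 3 estrus libraries of batch 2 lay above all others and the estrus library of batch 3 near the bottom. Its fold change was 0.33 ± 0.21 in estrus against proestrus (SE, limma adjusted p = 0.482) and 0.26 ± 0.21 in estrus against metestrus (SE, limma adjusted p = 0.670). Within batch 2 the latter difference was 0.52 and within batch 3 it was -0.37.

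The members as a group leaned upward in estrus without any of them passing. In estrus against metestrus 9 of 10 fold changes were positive (43.5% of all tested genes were), with a median of 0.21 beside -0.07 over all tested genes. In estrus against proestrus 9 of 10 were positive (52.0% of all tested genes were), with a median of 0.26 beside 0.02 (0.16 without Proestrus replicate 2, and up to 0.32 without Estrus replicate 4). In proestrus against metestrus 5 were positive and the median was -0.01 beside -0.09, and in males against metestrus 6 were positive with a median of 0.04 beside 0.04 (-0.09 to 0.11 without single libraries). With libraries centred on their medians the counts in estrus stayed at 9 and 9, with medians of 0.26 and 0.26. Over left-out libraries the count in estrus against metestrus ran from 7 (without Estrus replicate 1) to 9, and was 8 without Metestrus replicate 2. In estrus against proestrus it was 9 or 10. The enzymes varied together over the same libraries, so these counts are not of independent genes.

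This lean was seen in batch 2, and the counts by batch were chosen after the values were seen. Within batch 2, 9 of 10 genes were higher in estrus than in metestrus and 10 of 10 higher than in proestrus, whereas in batch 3, with 1 library per stage, 3 and 4 were. The shares of all tested genes that were higher in these batches are not given here. Of the 10 genes, 6 were higher in estrus than in metestrus without overlap in batch 2 (Cpt1a, Cpt2, Acadvl, Hadha, Acaa2 and Bdh1), beside 15.7% of all tested genes. Another count of 6, with Acadm and Ppara in place of Cpt1a and Cpt2, was higher than in proestrus without overlap (19.7% of all genes). In either comparison 0 of the 10 were lower in estrus without overlap, beside 11.4% and 12.9% of all genes. Without Estrus replicate 4, the library of batch 3, the median fold change over metestrus was 0.36 in place of 0.21, without Metestrus replicate 3 it was 0.34 and without Metestrus replicate 1 it was 0.13.

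Lists of markers of other cells leaned upward or downward in estrus, and 0 of these markers passed the threshold. The mean of 10 oligodendrocyte markers was 10.22 ± 0.20 in estrus (SD, n = 4, range 10.05 to 10.49) and 9.84 ± 0.09 in metestrus (SD, n = 8, range 9.69 to 9.98), without overlap. All 10 of these markers had positive fold changes in estrus against metestrus (43.5% of all tested genes did), at a median of 0.36. Limma called 0 of the 10, with 4 below 0.05 before adjustment (11.3% of all tested genes were). The mean of the 16 astrocyte markers was 13.74 ± 0.29 in estrus (SD, n = 4, range 13.33 to 13.97). The 11 endothelial and mural markers had a median fold change of -0.70 in estrus against metestrus, with 8 of 11 negative. In estrus against proestrus it was -0.55, with 11 of 11 negative, where 52.0% of all tested genes were positive. Limma called 0 of them in either comparison, with 2 and 3 below 0.05 before adjustment, beside 11.3% and 14.5% of all tested genes. Their mean was 6.15 ± 0.58 in estrus (SD, n = 4) and 6.84 ± 0.36 in metestrus (SD, n = 8), with overlapping ranges. In estrus against metestrus 9 of 12 neuron markers were positive, with a median of 0.14, and 6 of 10 microglia markers, with a median of 0.04. Limma called 0 of either list there. The part of these markers in the estrus values of the members was not tested.

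The enzymes varied together from library to library. The 36 pairs among the 9 enzymes had Pearson correlations from 0.04 to 0.85 with a median of 0.56 over the 19 libraries, and 0.61 with group and batch means taken out. Bdh1 went closely with Hadha (0.82) and Cpt2 (0.81), and Cpt2 with Acadvl (0.81), whereas Cpt1a had no correlation above 0.43 with another enzyme. With group and batch means taken out, Cpt1a reached 0.51 with Acaa2. Ppara correlated with the enzymes at -0.40 to 0.42, with a median of -0.07. These points share libraries and groups, and 4 directions of variation are missing from the deposited values, so the correlations are a description.

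**Figure D4:**
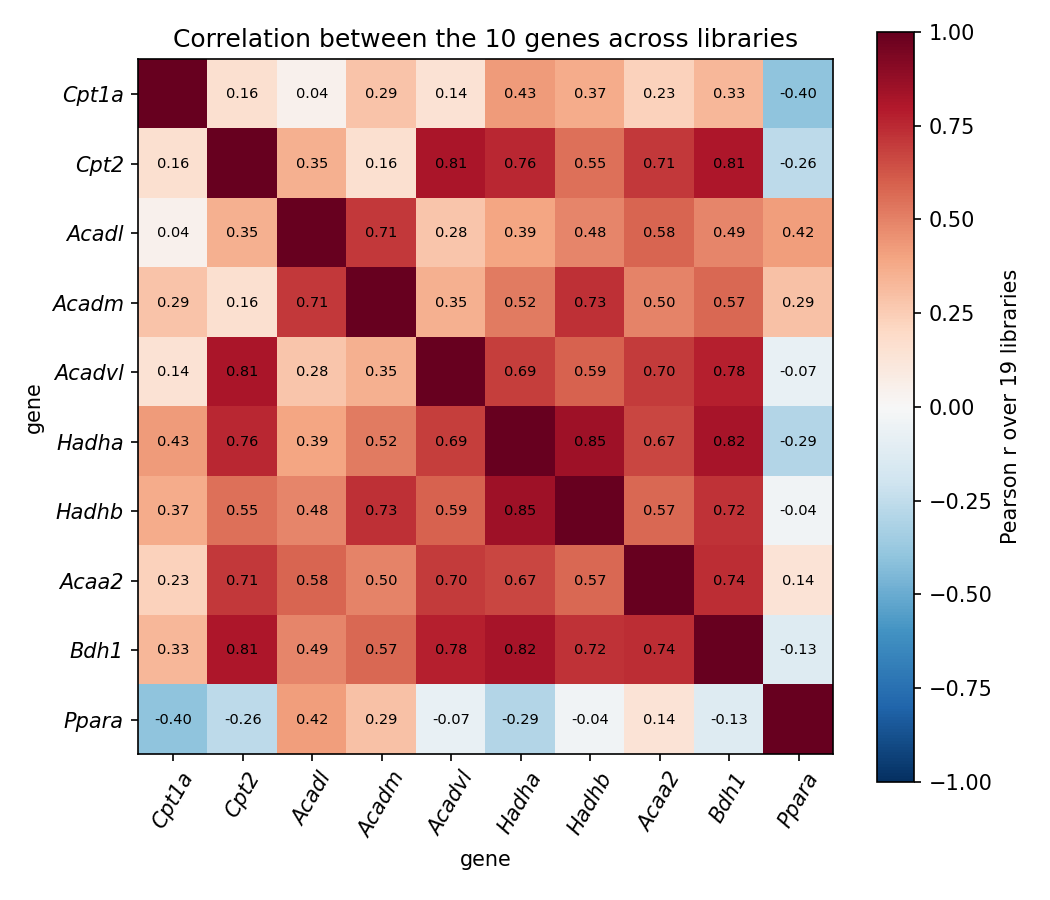
Pearson r over 19 libraries for each pair of the 10 genes (both axes), with colour from -1 to 1. All 36 pairs of enzymes have positive values, from 0.04 (Cpt1a with Acadl) to 0.85 (Hadha with Hadhb), and the row of Ppara lies between -0.40 and 0.42.

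Among all other tested genes, those with the pattern most like the mean of the 10 members were Rsu1, Ivd, Paics, Dnm2 and Nqo1, with Pearson r of 0.91, 0.91, 0.90, 0.90 and 0.90 over the 19 libraries. A correlation above 0.7 with that mean was found for 1.62% of tested genes. The genes most like Ppara alone were Tmem120b (0.89), Lef1os1 (0.89), Gm15201 (0.88), Pnn (0.86) and Irf2 (0.86).

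Of 90 other genes of fatty acid and ketone metabolism in 7 lists, 88 were tested, and 0 passed in limma in any of the 4 comparisons. Unadjusted p-values under 0.05 were found for 4 in proestrus against metestrus (13.1% of all tested genes had one), 11 in estrus against metestrus (11.3%), 6 in estrus against proestrus (14.5%) and 3 in males against metestrus (5.33%). The medians of the 88 fold changes were -0.01, 0.05, 0.06 and 0.07 in that order. Cyp4a10 and Cyp4a14, lipid hydroxylases among the PPAR targets, were the listed genes not tested.

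The ketone list of 8 genes leaned upward in estrus like the members. Against metestrus 7 of 8 were positive with a median of 0.17, and against proestrus 7 of 8 with a median of 0.19. Over all tested genes 43.5% and 52.0% were positive. Acat1, the mitochondrial acetoacetyl-CoA thiolase, stood at 0.46 ± 0.19 in estrus against metestrus (SE, limma adjusted p = 0.385). Oxct1, which lets cells use ketone bodies, had fold changes between -0.06 and 0.18.

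Among 17 other genes of mitochondrial beta-oxidation, 12 were positive in estrus against metestrus, beside 43.5% of all tested genes, with a median of 0.11. Etfdh, which passes electrons from the acyl-CoA dehydrogenases to ubiquinone, was named after its values were seen. Its mean was 10.57 ± 0.38 for estrus (SD, n = 4) and 9.59 ± 0.34 for metestrus (SD, n = 8), a fold change of 0.97 ± 0.26 (SE, limma adjusted p = 0.144), and 0.87 ± 0.26 over proestrus (SE, limma adjusted p = 0.0993). Hadh and Acads, the short-chain enzymes, had fold changes of -0.06 to 0.19 and of -0.22 to 0.07 over the 4 comparisons.

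In the list of 12 genes for fatty acid activation and the carnitine shuttle, Slc25a20, the carnitine-acylcarnitine carrier, had fold changes between -0.10 and 0.07. Acsl1, an acyl-CoA synthetase named after its values were seen, stood at 0.94 ± 0.29 in estrus against proestrus (SE, limma adjusted p = 0.104). The peroxisomal list of 13 genes was positive in 11 in estrus against proestrus, beside 52.0% of all tested genes, with a median of 0.18. The 3 lists named here and the ketone list had 0 genes past the threshold in each comparison.

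Partners and targets of Ppara were read from 13 tested genes. The related receptor gene Ppard had fold changes between -0.40 and 0.36, and Pdk4, a PPAR target that restrains glucose oxidation, between -0.23 and 0.31. Ppargc1a, a coactivator of mitochondrial genes, averaged 10.56 ± 0.17 in proestrus (SD, n = 3) and 11.12 ± 0.16 in metestrus (SD, n = 8). Its fold change of -0.58 ± 0.18 in proestrus against metestrus (SE, limma adjusted p = 0.128) did not pass. In that comparison 4 of the 13 genes were positive (41.9% of all tested genes were) and 9 negative, with a median of -0.06 beside -0.09 over all tested genes. In estrus against metestrus 4 were positive (43.5%), with a median of -0.08 beside -0.07. In estrus against proestrus 5 were positive (52.0%), with a median of -0.15 beside 0.02. In males against metestrus 11 were positive (55.3%), with a median of 0.15 beside 0.04.

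A list of 11 genes of fatty acid synthesis and malonyl-CoA control included Acaca, which makes malonyl-CoA, with fold changes between -0.46 and 0.00. In estrus against proestrus 10 of these 11 genes were negative, with a median of -0.16, while 52.0% of all tested genes were positive. The list also holds genes of malonyl-CoA control, so this count is not of synthesis genes alone. Prkaa2, a catalytic subunit of the energy sensor AMPK, was named after its values were seen. It averaged 10.06 ± 0.20 in proestrus (SD, n = 3) and 8.77 ± 0.32 in metestrus (SD, n = 8), a fold change of 1.27 ± 0.32 (SE, limma adjusted p = 0.0612). In estrus against metestrus it stood at 1.12 ± 0.30 (SE, limma adjusted p = 0.156).

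The last list held 14 genes for fatty acid uptake, lipid droplets and lipolysis, and 0 passed in the 4 comparisons. Fabp7, a fatty acid binding protein of astrocytes, averaged 13.81 over the metestrus libraries, 13.50 over proestrus, 13.73 over estrus and 13.79 over males, with fold changes between -0.35 and 0.20.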

How the data were processed

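The authors deposited 1 table of log2 values per gene and library, with no counts, so the depth is unknown. Per the submitters' processing notes, STAR, Salmon, edgeR and the build GRCm39 were used, without versions or order. Their scaling, pseudocount and filter are unstated in these notes and labels. Values ran from -5.12 to 19.00. After the groups were fitted the columns spanned 11 of 15 dimensions, so 4 directions of variation between libraries are missing and p-values may be too small. Fold changes between stages rest on batches 2 and 3, and those of males on batch 4.

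limma 3.58.1 in R 4.3.3 (trend, robust) fitted group and batch to all 19 libraries, for genes with a value of at least 3.32 in at least 3 libraries (94.9%). The procedure was tested on simulated data. Alternatives covered batch, removed directions, scaling, filters, variance prior, shared batches, pairing and left-out libraries. The members and lists were chosen with earlier results of these data known. Named genes are all members, 12 listed anchors (2 of them are not reported here), listed genes past the threshold (0 were) and the 5 genes most like the members or Ppara. Etfdh, Acsl1 and Prkaa2 fall outside this rule and were named after their values were seen. Replicate numbers follow the order of deposition. Promoter windows and their coordinates are of GRCm38.p6, another build than the authors', and were matched by symbol. No coordinates of the expression values were used.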

Additional observations from a re-analysis of the deposited data

Results flagged for a closer look

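In 30 groups of 4 or 8 libraries, 4 values lay far from the others of their group by Dixon's criterion at 95%, where chance flags about 1 group in 20. A single estrus library, replicate 4 of batch 3, accounts for 3 of them. In it Acadvl was at 10.76 (the nearest other estrus library was at 11.62), Acaa2 at 11.23 (11.86) and Bdh1 at 11.23 (12.01). The other is Hadhb in Males replicate 1, at 12.55 beside 12.12 in the nearest male library. The mean of the 9 enzymes was 10.81 in Estrus replicate 4 and 11.21 to 11.45 in the other estrus libraries. It was 11.29 in Males replicate 1 and 10.82 to 10.97 in the other males. Groups of 3, as in proestrus, were not examined in this way.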

How the results depend on the processing

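Of 710 recomputed fold changes of single members, 669 kept their sign and 41 changed it, and 3 passed the threshold, each for Ppara. Filters, variance prior, counted directions and shared batches leave the fold change of a gene unchanged. So does leaving out a library from a batch that does not hold both groups. These settings keep the sign by construction, so the count of 669 is not a measure of stability. The number of members past the threshold was 0 in all other settings, 1 in proestrus against metestrus without a batch term, and 0 to 1 over left-out libraries in proestrus against metestrus and in estrus against proestrus (1 without Proestrus replicate 3). The share of all tested genes past the threshold depended more on the settings. For proestrus against metestrus it was 0.988%, and 5.55% without a batch term, 0.363% with fewer residual degrees of freedom for the missing directions of variation, 0.332% with the stricter filter (a log2 value of at least 6), 0.00484% from shared batches only and 0.329% (without Metestrus replicate 1) to 0.920% (without Metestrus replicate 2) over left-out libraries. For estrus against metestrus it was 0.0872%, then 4.35%, 0%, 0% and 0% in the same order, 0.237% without trend and robust prior, and 0% (without Estrus replicate 2 or Metestrus replicate 1) to 0.271% (without Metestrus replicate 3). For estrus against proestrus it was 0.940%, then 1.75%, 0.252%, 0.539% and 0% in that order, 1.5% with libraries centred on their medians, and 0.320% (without Proestrus replicate 1) to 2.08% (without Estrus replicate 4). For males against metestrus it was 0.0242%, and 0.0484% without a batch term, 0.00691% with the stricter filter, 0.0436% without trend and robust prior and 0.0242% to 0.0388% over left-out libraries. The cause was not tested. With centring, 209 genes were higher and 101 lower in estrus against proestrus, beside 123 and 71 without it.

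Titles in batch 4 carry numbers shared by males and females. With these as a replicate block, 0.0194% of genes and 0 members passed in males against metestrus. Same-numbered libraries had deviations correlated at -0.20 to 0.15, and 1 of 4 pairs correlated best with its own number. With 4 pairs, and 4 directions of variation missing from the values, this cannot tell whether the numbers mark pairs. For the stages no paired analysis was possible because replicate numbers follow the order of deposition.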
